A study of Homo sapiens with 18 samples.

Results

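The binding sites of 2 transcription factors, estrogen receptor α (ERα) and SP1, were compared in ZR751shMLL3 cells. For each of the 4 ChIP-seq libraries, 2 of ERα and 2 of SP1, the 5000 peaks with the highest signal were taken. This gave 20000 sites of the 1109464 peaks in those 4 lists. A site is given by the summit of its peak, and its rank is its order by signal within its own list.

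ZR751 is a luminal breast cancer line that expresses the estrogen receptor. In ZR751shMLL3 a lentiviral short hairpin targets MLL3 (gene symbol KMT2C), a histone H3K4 monomethyltransferase, and in ZR751shLucif, the control, the hairpin targets luciferase. Both were stably transduced, sorted for GFP, used at early passage and grown in serum-containing medium with insulin, and the labels name no hormone or drug. The comparison rests on 1 cell line and 1 MLL3 hairpin, on 2 biological replicates of 1 experimental repetition, and on 1 input library against which both factors were called. KMT2C was at 1.07 and 2.69 FPKM in the 2 ZR751shMLL3 RNA libraries and at 2.34 and 6.77 FPKM in the 2 ZR751shLucif RNA libraries, so the lower control library lay under the higher knockdown library. The RNA libraries held the luminal markers (ESR1 at 12.1 and 10.8 FPKM, GATA3 at 259 and 206, KRT8 at 4114 and 3805), and the basal markers KRT5, KRT14 and TP63 summed to 0.137 and 0.0603 FPKM. Of the markers of other cell types, 4 fibroblast genes summed to 17.0 and 17.7 FPKM, almost all of it COL1A1 with COL1A2 at 0, and 4 leukocyte genes to 13.9 and 7.68 FPKM, almost all of it CD68 with CD3E at 0. In bulk RNA fewer cells of a type and less RNA per cell cannot be told apart.

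ERα is a nuclear receptor that binds the estrogen response element (ERE), an inverted repeat of GGTCA with TGACC 3 bases further on. In breast cancer cells it is known mainly at distal enhancers, beside the pioneer factor FOXA1 and with GATA3, where H3K4me1 marks the nucleosomes. SP1 is a zinc finger activator that binds GC boxes (GGGGCGGGG, with the core GGGCGG) in CpG-rich promoters, often beside NF-Y and ETS sites. ERα is also known to reach some promoters without an ERE by contact with SP1 bound to a GC box, so the distance between the sites of the factors is a question of its own in these cells.

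The following sequences are examples of the best sites of each factor. They are 3 sites of ERα and 1 of SP1, from the 5 per factor with the lowest sum of ranks that both lists of a factor held within 1 kb and that had no site of the other factor within 10 kb. Each is the plus strand of hg19 (GRCh37), 50 bases on each side of the summit, 5′ to 3′, with every match to the motifs searched in capitals (ERE and its single arm AGGTCA, GC box and its core, TGANTCA for AP-1, TGTTTAC for forkhead, AGATAA for the GATA family, GATTGG for NF-Y, CCGGAAGT for ETS, GCGCATGC for NRF1 and CCACCAGGG for CTCF, both strands). The ERE contains a stretch of the single arm and the GC box contains its core, so those matches overlap.
ERα, chr12:116828334-116828434, intergenic: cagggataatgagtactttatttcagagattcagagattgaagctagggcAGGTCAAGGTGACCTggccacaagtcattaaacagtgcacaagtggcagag
ERα, chrX:16680558-16680658, intron of CTPS2: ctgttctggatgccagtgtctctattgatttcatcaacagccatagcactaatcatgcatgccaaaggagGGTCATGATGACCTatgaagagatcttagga
ERα, chr13:65788772-65788872, intergenic: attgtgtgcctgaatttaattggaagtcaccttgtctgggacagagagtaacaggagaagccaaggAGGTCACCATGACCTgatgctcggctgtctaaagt
SP1, chr13:114428158-114428258, intron of GRK1: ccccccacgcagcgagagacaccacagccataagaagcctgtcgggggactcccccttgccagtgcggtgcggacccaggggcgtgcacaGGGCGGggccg

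The first ERα site was rank 1 in both ERα lists and lay 112886 bp from the nearest start, that of MED13L, a subunit of the Mediator kinase module. All 3 ERα sequences held a full ERE. Of the 10 ERα sites with the lowest rank sums by this rule, 6 held a full ERE within 100 bp, and of the 10 SP1 sites 6 held the core GC box, so the sequences printed do not stand for all of them. The SP1 site in GRK1 ranked 11 and 6 in the SP1 lists and held the core GC box. Better ranked SP1 sites of the set are not printed. They include an intron site of GRID2IP, rank 1 in both lists, with a GC box. An intergenic site on chromosome 12, at ranks 2 and 25, held none of the motifs searched. Since SP1 sites in both lists were mostly at promoters, 2 promoter sites of the same set are added, chosen after their values were seen. Both lie upstream of the annotated start, outside every annotated exon.
SP1, chr16:30669641-30669741, promoter of FBRS: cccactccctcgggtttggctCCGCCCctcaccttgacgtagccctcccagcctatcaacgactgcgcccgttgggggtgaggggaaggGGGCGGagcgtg
SP1, chr12:6579859-6579959, promoter of VAMP1: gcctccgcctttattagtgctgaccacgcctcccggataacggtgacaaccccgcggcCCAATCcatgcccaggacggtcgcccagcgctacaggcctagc

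The FBRS site lay 61 bp from the start, with a core GC box on each strand, and ranked 43 and 7 in the SP1 lists. The VAMP1 site, 66 bp from the start of a gene for a vesicle fusion protein, ranked 48 and 4. It held an NF-Y motif within 50 bp of its summit, and within 100 bp also a GC box, beyond the stretch printed.

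The 4 lists were not alike in depth of signal, and SP1 replicate 2 stood apart. ERα replicate 1 held 764 peaks at the authors' FDR of 0.01 or less, all of them among its 5000. ERα replicate 2 held 31912, SP1 replicate 1 held 204178 and SP1 replicate 2 held 12065, so in those 3 lists all 5000 sites passed. SP1 replicate 1 listed 209985 peaks in all, so nearly its whole list passed and passing does not set its 5000 sites apart. The signal of the last site inside and of the first outside was 10.607 and 10.607 in ERα replicate 1, 5.64 and 5.64 in ERα replicate 2, 5.0238 and 5.0238 in SP1 replicate 1, and 10.674 and 10.6732 in SP1 replicate 2. In SP1 replicate 1, 61 peaks were tied at that signal and 28 of them stayed outside. Chromosome 1, with 8.21% of the genome length, held 23.1% and 8.98% of the ERα sites and 15.9% and 14.3% of the SP1 sites. The list of SP1 replicate 1 is named without the mark for filtered, duplicate-free reads that the other 3 carry. The ERα and SP1 libraries of ZR751shMLL3 also carry different library name prefixes, so prefix and factor cannot be told apart in these cells.

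SP1 sites lay at promoters more often than ERα sites in every library. A summit within 1 kb of a protein-coding transcript start was counted as a promoter site. The share was 2.2% in ERα replicate 1 (95% Wilson interval 1.83 to 2.64) and 1.94% in ERα replicate 2 (1.59 to 2.36), against 8.18% in SP1 replicate 1 (7.45 to 8.97) and 82.2% in SP1 replicate 2 (81.2 to 83.3). Bases within 1 kb of such a start make up 2.33% of the genome, so both ERα libraries sat at the level of the genome and both SP1 libraries above it. ERα sites shifted by 50 kb gave 1.80% to 2.24%, no different in size from the unshifted share, and SP1 sites shifted in the same way gave 2.18% to 2.64% for replicate 1 and 7.30% to 7.68% for replicate 2. The means were 2.07% ± 0.184 for ERα and 45.2% ± 52.4 for SP1 (SD, n = 2 libraries each), a difference of -43.1 percentage points with an exact two-sided permutation p of 0.333, the smallest that 2 libraries against 2 can give. Without SP1 replicate 2 the difference was -6.11 percentage points.

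**Figure D1:**
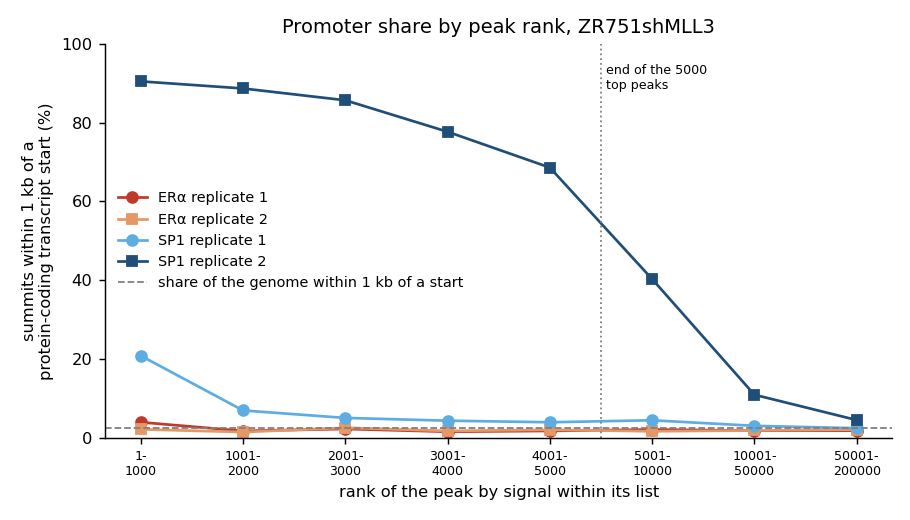
The vertical axis gives the percentage of peaks with a summit within 1 kb of a protein-coding transcript start, and the horizontal axis gives bins of peak rank within each list, with 1 line per ZR751shMLL3 library and a dashed line at the 2.33% of the genome that lies within 1 kb of a start. SP1 replicate 2 goes from 90.5% in ranks 1 to 1000 down to 4.46% in the last bin, which ends at rank 200000, SP1 replicate 1 starts at 20.8%, and both ERα lines lie between 1.40% and 3.90% throughout.

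Promoter sites of SP1 were concentrated at the top of both lists. Among the 500 strongest sites the promoter share was 32.2% in SP1 replicate 1 and 89.4% in SP1 replicate 2, against 4.40% and 2.60% in the ERα lists. In SP1 replicate 1 it went from 20.8% in the first 1000 to 3.90% in the last 1000 of the 5000. ERα replicate 1 had 3.90% in its first 1000 and between 1.5% and 2.2% in the other bins up to rank 5000, while ERα replicate 2 had between 1.40% and 2.50% in all of them. The ERα sites away from promoters were in introns (41.0% and 42.9%), between genes (53.9% and 52.7%) or in exons (2.96% and 2.50%). SP1 replicate 1 looked much the same beyond its promoters, with 39.2% in introns and 50.5% between genes, while SP1 replicate 2 had 6.36% and 10.2%. The median distance to a transcript start was 76048 and 68888.5 bp for ERα and 61586.5 and 126 bp for SP1.

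The same order was seen in the control cells. In ZR751shLucif the promoter share was 2.52% and 4.18% for ERα and 6.82% and 7.64% for SP1. With these libraries included, the 4 ERα libraries ranged from 1.94% to 4.18% and the 4 SP1 libraries from 6.82% to 82.2%, with no overlap (exact two-sided permutation test, p = 0.0286, the smallest that 4 against 4 can give, and 0.0445 after Benjamini-Hochberg adjustment over 14 measures). This test permutes labels across the 2 cell lines, each with its own input library. With labels permuted within each line the exact p was 0.0556, the smallest that 36 arrangements can give (adjusted 0.0865), so no measure passed 0.05. The ERα library at 4.18% is the only ERα library with the name prefix of the SP1 libraries, and it lay under all 4 of them. A within-prefix test was not possible, since 1 prefix holds 1 ERα library and the other holds no SP1 library.

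The motifs at the summits separated the factors in both libraries of each. The window was 100 bp on each side of the summit, and positions 1000 bp to either side of it gave the level beside it. A full ERE was found at 3.44% of sites in ERα replicate 1, 1.82% in ERα replicate 2, 0% in SP1 replicate 1 and 0.04% in SP1 replicate 2, with 0.01% to 0.03% in the flanks. The 0 of 5000 sites in SP1 replicate 1 allows a share of up to 0.0768% (upper Wilson limit). The ERE thus stood above its flanks in both ERα libraries. In SP1 replicate 2 the 0.04% had an interval of 0.011 to 0.146, just above its flank of 0.01%.

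The single ERE arm AGGTCA was found at 17.2% and 13.1% of ERα sites, against 11.97% and 12.15% in their flanks, and at 7.94% and 6.62% of SP1 sites, against 11.7% and 13.9%. It was therefore above its flanks in ERα replicate 1 and below them in both SP1 libraries. In ERα replicate 2 the intervals of sites (12.2 to 14.0) and flanks (11.5 to 12.8) overlapped. The GC box had the opposite order, with 0.12% and 0.10% of ERα sites against 1.70% and 19.8% of SP1 sites. Its core GGGCGG was at 1.44% and 0.82% of ERα sites (flanks 2.10% and 1.93%) and at 6.02% and 62.9% of SP1 sites (flanks 3.11% and 14.1%). Around the most upstream starts of 19834 protein-coding genes, the core was found in 48.2%, the full GC box in 16.3% and the ERE in 0.0303%.

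Of the motifs of other factors, NF-Y and ETS were higher at SP1 sites, forkhead was higher at ERα sites, and GATA, AP-1 and CTCF overlapped. The NF-Y motif GATTGG was found at 5.14% and 5.98% of ERα sites, at the level of their flanks (5.37% and 5.90%), and at 7.56% and 19.2% of SP1 sites (flanks 5.58% and 5.25%). The ETS motif CCGGAAGT was at 0.10% and 0.08% of ERα sites and at 0.60% and 5.14% of SP1 sites. The forkhead motif TGTTTAC, the kind FOXA1 binds, was at 4.36% and 4.44% of ERα sites (flanks 3.61% and 3.33%) and at 3.40% and 1.32% of SP1 sites (flanks 3.50% and 2.57%). The GATA motif was at 18.5% and 19.2% of ERα sites against 20.6% and 3.38% of SP1 sites, AP-1 at 7.02% and 6.52% against 6.68% and 2.38%, and CTCF at 0.24% and 0.08% against 0.10% and 0.68%. Each motif difference had an exact two-sided permutation p of 0.333 or more with 2 libraries per factor. With the ZR751shLucif libraries, ERE, its single arm, GC box, its core, forkhead, NF-Y and ETS did not overlap between 4 ERα and 4 SP1 libraries (exact two-sided permutation p = 0.0286 each, adjusted 0.0445, and 0.0556 within cell lines), while AP-1, GATA, NRF1 and CTCF did (p = 0.457, 0.429, 0.143 and 0.571).

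**Figure D2:**
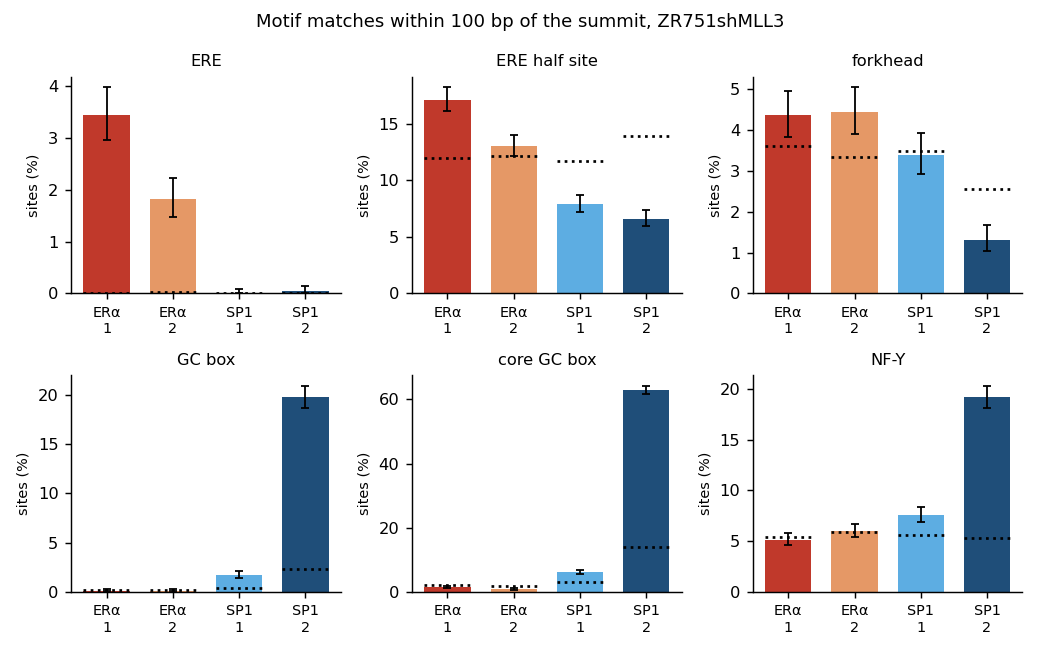
Each panel gives, for 1 motif, the percentage of the 5000 sites with a match within 100 bp of the summit in each ZR751shMLL3 library (bars, with 95% Wilson intervals) and the percentage at positions 1000 bp to either side (dotted lines). The ERE stands above its flanks in the ERα libraries alone (3.44% and 1.82%), and the GC box, its core and NF-Y stand above theirs in the SP1 libraries, most of all in SP1 replicate 2.

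The GC content of the windows moved with the library as well as with the factor. Its median was 36.8% and 35.8% at ERα sites and 33.3% and 64.7% at SP1 sites, so the SP1 replicates lay on opposite sides of ERα (exact two-sided permutation p = 1, n = 2). SP1 replicate 1 differed by position: its 409 promoter sites had a median GC content of 57.7%, the core GC box in 57.2% and NF-Y in 26.2%, and its 4591 other sites had 32.8%, 1.46% and 5.90%. In SP1 replicate 2 the 4112 promoter sites had 65.7%, 67.3% and 20.3%, and the 888 other sites still had 58.0%, 42.6% and 14.2%. The SP1 replicates were thus closer in sequence at promoters than away from them. The 110 and 97 promoter sites of ERα had the core GC box in 10.9% and 4.12% of windows, under the 48.2% of gene starts in general. Those start windows are centred on a start, while an ERα promoter summit can lie up to 1 kb from one. Median GC content was 44.3% and 39.8% at these ERα sites and 64.2% at gene starts, and the part of position was not tested.

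Sites found in both lists of a factor were also compared. Both ERα lists held 277 sites in common within 1 kb, and both SP1 lists held 367. The ERα sites numbered 7 at promoters (2.53%, interval 1.23 to 5.12), 11 in exons, 112 in introns and 147 between genes. The SP1 sites numbered 300 at promoters (81.7%, 77.5 to 85.4), 3 in exons, 29 in introns and 35 between genes. That promoter share is near the 82.2% of all 5000 sites of SP1 replicate 2. Promoter and other sites of SP1 replicate 2 had a replicate 1 site within 1 kb in 10.1% and 10.0% of cases. From replicate 1 to replicate 2 these shares were 74.1% and 1.46%. The promoter share of the repeated SP1 sites is therefore not a measure separate from SP1 replicate 2. The ERE was at 31.0% of the repeated ERα sites and its single arm at 62.8%, against 0% and 7.90% of the repeated SP1 sites. The core GC box was at 66.5% of the SP1 sites and NF-Y at 27.5%, against 3.61% and 6.14% of the ERα sites. Over all 5000 sites of SP1 replicate 2 these motifs were at 62.9% and 19.2%.

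H3K4me1, the mark that MLL3 writes at enhancers, lay within 1 kb of 40.8% and 39.7% of the repeated ERα sites and of 5.99% and 6.54% of the repeated SP1 sites, using the 50000 strongest peaks of each of the 2 ZR751shMLL3 H3K4me1 libraries. Over all 5000 sites the share was 15.2% and 14.1% in ERα replicate 1 (5.98% and 5.74% at shifted positions), 6.02% and 5.96% in ERα replicate 2 (3.86% and 3.16%), 5.98% and 5.88% in SP1 replicate 1 (4.81% and 4.30%) and 6.82% and 7.16% in SP1 replicate 2 (3.92% and 3.69%). ERα replicate 2 and the SP1 libraries were close together, so the factors did not separate on this measure (means of 10.3% ± 6.12 and 6.46% ± 0.750, SD, n = 2, exact two-sided permutation p = 0.667). Within SP1 replicate 2, promoter sites had H3K4me1 at 4.69% and 4.84%, and the 888 other sites at 16.7% and 17.9%, against 6.36% and 5.29% when these were shifted.

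**Figure D3:**
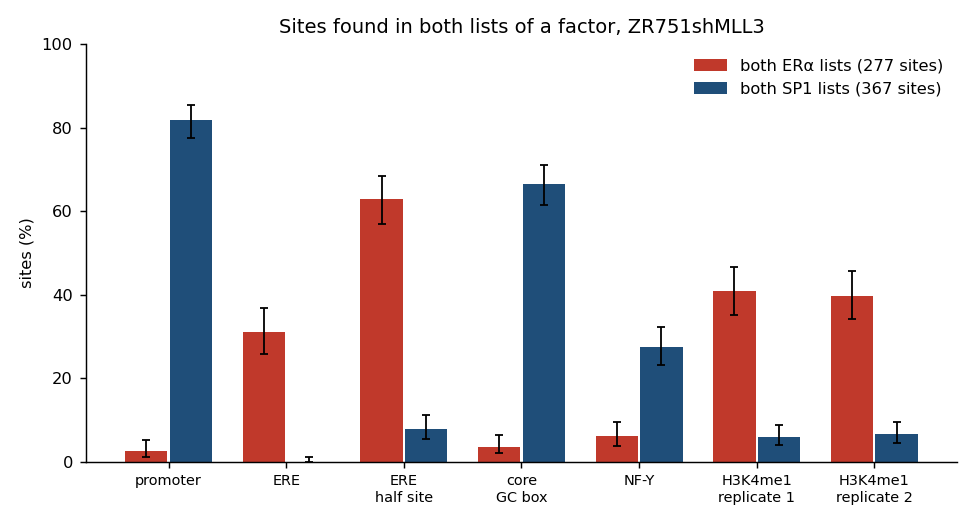
Bars give the percentage, with 95% Wilson intervals, of the 277 sites in both ERα lists and the 367 sites in both SP1 lists that lie at a promoter, hold a motif within 100 bp of the summit, or lie within 1 kb of an H3K4me1 peak of each H3K4me1 library. Promoters (2.53% against 81.7%), the core GC box (3.61% against 66.5%) and NF-Y are higher in the SP1 set, and the ERE (31.0% against 0%) and H3K4me1 are higher in the ERα set.

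Many of the repeated sites were also among the strongest in the control cells. Of the 277 ERα sites, 48.0% and 81.9% had a site among the 5000 of ZR751shLucif ERα replicates 1 and 2. For the 367 SP1 sites the shares were 33.0% and 29.4% in the ZR751shLucif SP1 libraries. Of the 20 repeated sites with the lowest rank sums and no site of the other factor within 10 kb, 10 per factor, all 10 ERα sites had a ZR751shLucif ERα site within 1 kb in both control libraries. So did 9 of the 10 SP1 sites with SP1, the exception being VAMP1, whose nearest control sites lay 13762 and 218967 bp away.

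Sites of ERα replicate 1 lay near SP1 sites somewhat more often than shifted positions did, and for ERα replicate 2 the intervals included the shifted level or lay just above it. Sites of ERα replicate 1 had a site of SP1 replicate 1 within 1 kb in 1.26% of cases (interval 0.986 to 1.61), against 0.87% when shifted by 50 kb, and a site of SP1 replicate 2 in 1.00% (0.759 to 1.32), against 0.36%. For ERα replicate 2 the values were 0.60% (0.421 to 0.855) against 0.40% with SP1 replicate 1, and 0.30% (0.182 to 0.494) against 0.30% with SP1 replicate 2. Replicates of the same factor met far more often, with 8.70% and 5.60% between the ERα lists against 0.54% and 0.49% shifted, and 7.40% and 10.1% between the SP1 lists against 0.56% and 0.72%. The excess of ERα sites near SP1 over shifted positions ranged from 0.00 to 0.64 percentage points over the 4 pairs, with a mean of 0.3075.

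**Figure D4:**
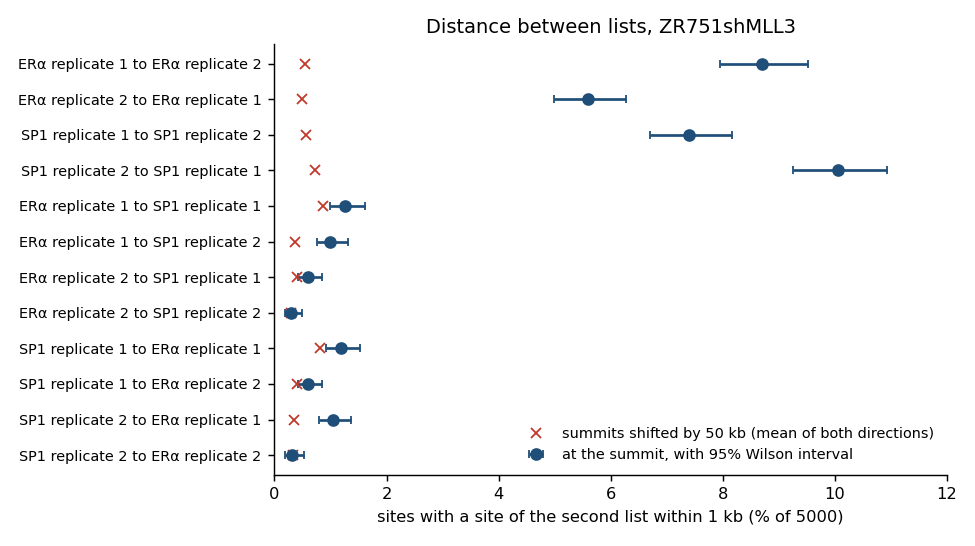
Points give the percentage of the 5000 sites of the first named list with a site of the second list within 1 kb, with 95% Wilson intervals, and crosses give the same for sites shifted by 50 kb. The 4 pairs within a factor lie between 5.60% and 10.1%, far from their crosses, and the 8 pairs across factors lie between 0.30% and 1.26%, near their crosses.

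Seen from SP1, 1.18% and 0.60% of replicate 1 sites had a site of ERα replicate 1 or 2 within 1 kb (0.81% and 0.40% shifted), and 1.04% and 0.32% of replicate 2 sites (0.35% and 0.33% shifted). The largest excess in both directions was between ERα replicate 1 and SP1 replicate 2. For that pair 23 ERα sites lay within 200 bp of SP1, against 3 and 5 when shifted down and up. Widening the window to 10 kb brought the 4 shares from ERα to SP1 to between 2.60% and 9.72% and those of shifted positions to between 2.01% and 8.68%. The median distance from an ERα site to the nearest SP1 site was 100487 and 347615 bp for ERα replicate 1 and 205332 and 541366 bp for ERα replicate 2, against 98591.5, 343994.5, 206725 and 540306.5 bp from shifted positions.

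At promoters the share of ERα sites with SP1 beside them differed between the ERα replicates. Of the 110 promoter sites of ERα replicate 1, 22.7% (15.9 to 31.4) had a site of SP1 replicate 2 within 1 kb, and of the 97 of ERα replicate 2, 7.22% (3.54 to 14.2). These shares count sites, so a share of genes is no level for them. Counted by gene, SP1 replicate 2 reached 38.1% (29.4 to 47.6) of the promoters of ERα replicate 1 and 23.2% (16.0 to 32.5) of those of ERα replicate 2. It reached 20.3% of all 19807 protein-coding genes, under the first interval and within the second. With SP1 replicate 1 the shares of sites were 6.36% (3.12 to 12.6) and 2.06% (0.567 to 7.21). By gene they were 10.5% (5.95 to 17.8) and 2.02% (0.556 to 7.07). SP1 replicate 1 reached 2.47% of all genes, under the first of these gene intervals and within the second. Away from promoters, 2.36% of the 888 such sites of SP1 replicate 2 had ERα replicate 1 within 1 kb against 0.45% shifted. For ERα replicate 2 the share was 0.901% against 0.225% shifted, and these are 21 and 8 sites. Seen from ERα, 0.511% (0.347 to 0.754) of the 4890 such sites of replicate 1 had SP1 replicate 2, against 0.358% shifted. For the 4903 of ERα replicate 2 it was 0.163% (0.0827 to 0.322) against 0.275%. Both of these intervals included the shifted level.

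No site was held by all 4 lists within 1 kb. Of the 277 repeated ERα sites, 13 (4.69%) had a site of either SP1 list within 1 kb, against 4 and 2 when shifted down and up, and of the 367 repeated SP1 sites, 7 had a site of either ERα list, against 0 and 4. These are named here after their values were seen. The ERα sites include an intergenic site at summit position 41427256 of chromosome 19 (ERα ranks 4 and 31, SP1 replicate 2 rank 3317, 35 bp away) and one at 1817970 of chromosome 11 (ranks 19 and 51, SP1 replicate 2 rank 3491, 2 bp away), neither with an ERE or a GC box within 100 bp. The site at 6:119558637, in an intron of MAN1A1, a Golgi mannosidase, ranked 1354 and 110 in the ERα lists and lay 7 bp from rank 46 of SP1 replicate 1. The 1 promoter among the 13 was that of RERG, a Ras-like gene named for its response to estrogen, with ERα ranks 53 and 179 and a site of SP1 replicate 1 at rank 371, 142 bp away. At RERG the level was 32.4 and 18.8 FPKM.

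The 7 repeated SP1 sites with ERα nearby were 6 promoters and an intron of RYR2. The promoters were those of ZNF687 (SP1 ranks 25 and 5, ERα replicate 1 rank 690 at 739 bp), TSNAXIP1, ETV1, TCIRG1, MRPL32 and EEF1A1, the translation elongation factor, at 1676 and 2005 FPKM. In each of the 7 a single ERα list gave the nearby site, at ranks 625 to 3716. Of these 7 sites 4 held the core GC box and none held an ERE or its single arm.

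ERα reached few genes at their promoters and SP1 many. A gene was counted as reached where a site lay within 1 kb of a protein-coding transcript start. The counts were 105 genes in ERα replicate 1 (0.53% of 19807), 99 in ERα replicate 2 (0.5%), 489 in SP1 replicate 1 (2.47%) and 4024 in SP1 replicate 2 (20.3%). Both ERα lists reached 7 genes (0.0353%), both SP1 lists 399 (2.01%), and no gene was reached in all 4. Of the genes of SP1 replicate 1, 81.6% were also reached by replicate 2, which are 9.92% of the genes of replicate 2. The 105 and 99 genes of the ERα lists shared 7, which are 6.67% and 7.07% of them. With 2 libraries per factor the exact two-sided permutation p was 0.333.

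The 7 promoters in both ERα lists were those of THSD4, STARD10, RERG, FKBP4, TPRG1, GREB1 and CDH18. THSD4 (chr15:71389291-72075722) had ERα ranks 98 and 96, at 10.5 and 11.0 FPKM. STARD10 (chr11:72465774-72505092), a phospholipid transfer protein, had ranks 113 and 108, at 272 and 265 FPKM. FKBP4 (chr12:2904136-2914589), an Hsp90 cochaperone of steroid receptors, had ranks 72 and 321, at 259 and 213 FPKM, and was the only one of the 7 with an SP1 promoter site, rank 2110 of SP1 replicate 2. GREB1 (chr2:11622467-11782914), a classical ERα target and cofactor, had ranks 253 and 424, at 56.3 and 35.3 FPKM. TPRG1 and CDH18, in contrast, were at 0.200 and 0.123 and at 0.150 and 0.205 FPKM.

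The 10 promoters with the lowest rank sums in both SP1 lists were those of GINS4, ZNF687, CDCA2, KCTD9, OS9, SLC25A44, CIC, FBRS, VAMP1 and NUCKS1. CDCA2 and KCTD9 share 1 site between divergent starts (ranks 15 and 16). OS9 (chr12:58087624-58122125), a lectin of protein quality control in the endoplasmic reticulum, had ranks 4 and 31, at 189 and 207 FPKM. NUCKS1 (chr1:205681950-205719310), a chromatin protein, had ranks 24 and 30, at 250 and 282 FPKM. The lowest level among these 10 was 4.70 FPKM, at VAMP1, so all 10 were expressed, and ZNF687 was the only one with an ERα promoter site (rank 690 of ERα replicate 1).

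The share of genes reached at the promoter was higher among highly expressed genes in both SP1 libraries and in ERα replicate 1, and not in ERα replicate 2. SP1 replicate 2 reached 2.89% of genes under 1 FPKM and 19.4%, 28.6%, 31.8%, 38.5% and 46.3% of genes in 5 equal bins of rising FPKM from 1 upwards. In SP1 replicate 1 the shares were 0.569%, then 1.86%, 2.61%, 4.34%, 4.80% and 5.36%. In ERα replicate 1 they were 0.327%, then 0.326%, 0.466%, 0.746%, 0.606% and 1.12%, which rest on only 7 to 24 genes per bin. In ERα replicate 2 they went from 0.441% to 0.466%, with 0.793% in between, on 7 to 31 genes per bin. The median level of genes reached was 11.4 and 5.86 FPKM for the ERα lists and 15.9 and 16.1 FPKM for the SP1 lists, against 3.39 FPKM for all genes with a value. Of genes reached by both SP1 lists, 94.8% were at 1 FPKM or more, against 60.4% of all genes.

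**Figure D5:**
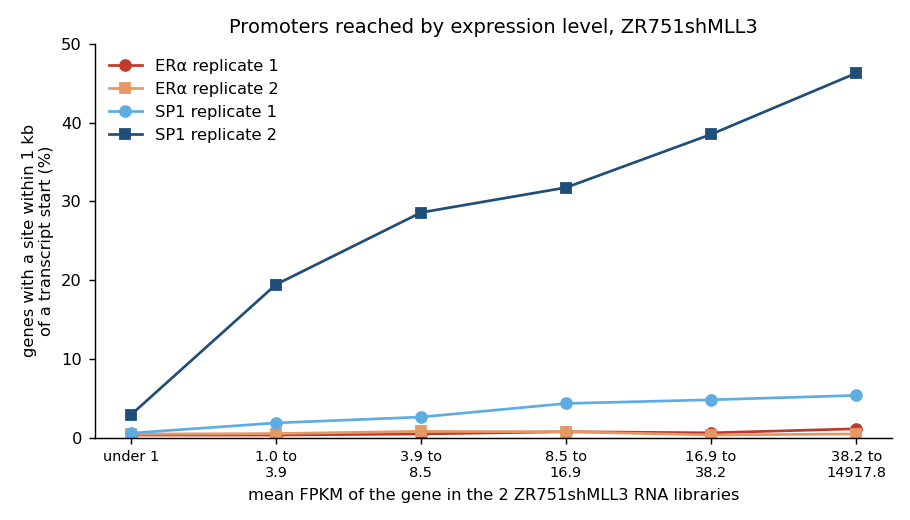
The vertical axis gives the percentage of genes with a site within 1 kb of a transcript start, and the horizontal axis gives the mean FPKM over both ZR751shMLL3 RNA libraries, as genes under 1 FPKM and 5 equal bins above. The line of SP1 replicate 2 rises from 2.89% to 46.3% and that of SP1 replicate 1 from 0.569% to 5.36%, while both ERα lines stay at or under 1.12%.

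Genes reached at the promoter by either factor overlapped in 62 genes (0.313% of all genes), which are 31.5% of the 197 genes of either ERα list and 1.51% of the 4114 of either SP1 list, where SP1 reached 20.8% of all genes. The lists share an input library. Restricted to the 10722 genes at 1 FPKM or more, the shares were 42.1% (interval 33.8 to 50.8) of ERα genes against 33.5% of all genes. The share was 47.1% (35.9 to 58.7) for ERα replicate 1 and 34.4% (23.7 to 47.0) for ERα replicate 2, so the first interval lay above 33.5% and the second included it. The best-ranked ERα sites among the 62 included those at FKBP4 and at PARP2, a DNA repair enzyme (ERα replicate 2 rank 234, SP1 replicate 2 rank 1081).

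Many classical ERα targets were the nearest gene to ERα sites outside their promoters. When each site was given to its nearest protein-coding gene within 1 Mb, both ERα lists reached 12 of 25 classical ERα targets (48.0%, where they reached 6.06% of all genes) and both SP1 lists reached 2 of 25 (8.00%, against 4.7% of all genes). At promoters both ERα lists reached 1 of the 25, GREB1. The 12 were GREB1, PGR, XBP1, RARA, IGFBP4, NRIP1, SIAH2, ADCY9, BCL2, STC2, CCND1 and MYB, and the 2 of SP1 were XBP1 and CCND1. The rule gives nearness alone, contact and regulation were not measured, and 6.06% takes no account of the span nearest each gene. By this rule both ERα lists reached 41.7% of 12 luminal factors, 30.8% of 13 SP and KLF factors and 26.7% of 15 genes described as reached through SP1. They reached 6.67% of 15 classical SP1 promoters, 4.71% of 85 ribosomal protein genes and 0% of 20 genes of other tissues. All 4 lists reached 192 genes as nearest gene (0.969% of all genes), XBP1 and CCND1 among them. TFF1, the trefoil factor often used to read out ERα activity, had no site in any of the 4 lists by either rule, at 1029 and 226 FPKM.

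For 7 of the 12 the best site of both ERα lists was at the same place within 50 bp. RARA, the retinoic acid receptor α, had ERα ranks 7 and 37 at 4224 and 4239 bp from a start. SIAH2, a ubiquitin ligase, had ranks 36 and 25 at 6549 and 6524 bp, and GREB1 had ranks 20 and 35 at 16390 and 16378 bp. XBP1, a transcription factor of the unfolded protein response and at 1207 and 1112 FPKM among the highest of the list, had ranks 142 and 389 at 13338 and 13317 bp. MYB, a proto-oncogene, had ranks 174 and 270 at 25445 and 25421 bp. CCND1, the G1 cyclin, had ranks 76 and 408 at 125705 and 125662 bp, and SP1 replicate 2 had a site 29 bp from its start (rank 4148). STC2 had ranks 237 and 1401 at 124989 and 125011 bp. For PGR and NRIP1 the best sites of the lists were different ones, at 206507 and 169549 bp and at 276915 and 210215 bp.

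Of 15 genes described as reached by ERα through SP1, SP1 replicate 2 reached the promoters of 7 (46.7%, against 20.3% of all genes and 32.9% of genes at 1 FPKM or more). They were TK1, RARA, CTSD, FOS, VEGFA, CCND1 and TYMS. SP1 replicate 1 and both ERα lists reached 0 of 15, where they reached 2.47%, 0.53% and 0.5% of all genes. TK1, thymidine kinase, had the best rank (91), and the other 6 had ranks 2382 to 4366. As nearest gene, both ERα lists reached 4 of the 15 (26.7%, against 6.06% of all genes), which were RARA, IGFBP4, CCND1 and BCL2. Their best sites lay 4224 to 125705 bp from a start in ERα replicate 1. All 4 are also among the 12 classical ERα targets named above, so this count is not separate from that one. RARA and CCND1, 2 of the 15, had both an SP1 site at the promoter, 151 and 29 bp from a start, and ERα sites at a distance. All 7 SP1 promoters of this list were seen in 1 library.

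Of 15 classical SP1 promoters, SP1 replicate 2 reached 5 (33.3%, near the 32.9% of genes at 1 FPKM or more), which were TYMS, VEGFA, SP1, HSP90AB1 and TGFB1. SP1 replicate 1 reached 1 (6.67%, against 2.47% of all genes), which was SP1 itself, at rank 30 and at rank 330 in replicate 2. ERα reached 0 in either list. As nearest gene, IGF1R of the same list had sites in both ERα lists, ranks 159 and 60 at 41552 and 41593 bp from a start. Both ERα lists and both SP1 lists each reached 1 of these 15 as nearest gene (6.67%, against 6.06% and 4.7% of all genes). Of the 13 SP and KLF factors, SP1 replicate 2 reached 7 (53.8%, against 20.3% of all genes and 32.9% of genes at 1 FPKM or more). Replicate 1 reached 2 (15.4%, against 2.47% and 3.80%), SP1 and SP2 (ranks 26 and 128), and ERα reached 0. Both ERα lists had SP4, KLF4, KLF5 and KLF6 as nearest gene, at 3912 to 615428 bp from a start, and both SP1 lists had SP1, SP2, SP4 and KLF5. Each is 4 of 13 (30.8%), against 6.06% of all genes for ERα and 4.7% for SP1. Of 12 luminal factors, SP1 replicate 2 reached 6 promoters (50.0%, against 20.3% of all genes and 32.9% of genes at 1 FPKM or more), those of GATA3, FOXA1, XBP1, ELF3, GRHL2 and TBX3. Of these, SP1 replicate 1 reached ELF3 alone (8.33% of the 12, against 2.47% of all genes), at rank 181 against 607. ERα reached no luminal factor at its promoter, and the genes that both ERα lists reached as nearest gene included ESR1 (32226 and 99630 bp), XBP1, PGR and TBX3. As nearest gene both ERα lists reached 5 of the 12 (41.7%, against 6.06% of all genes) and both SP1 lists 4 (33.3%, against 4.7%). Of 85 cytosolic ribosomal protein genes SP1 replicate 2 reached 47 (55.3%), against 46.3% of the most highly expressed genes in general. SP1 replicate 1 reached 3 (3.53%), against 5.36% of those highly expressed genes. ERα reached 0, against 1.12% and 0.466% of them. Of 20 genes of other tissues, such as ALB and MYOD1, no list reached a promoter. Among all genes under 1 FPKM the lists reached 0.327% (ERα replicate 1) to 2.89% (SP1 replicate 2), so 0 of 20 is near that level. The promoter counts of 0 for ERα in the lists above are likewise near its 0.53% and 0.5% of all genes.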

How the data were processed

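ChIP-seq of ERα and SP1 (2 libraries each) and of H3K4me1, and RNA-seq, from ZR751shMLL3 cells were used. The authors aligned ChIP-seq reads to hg19 with BWA 0.7.5a-r405, marked duplicates with Picard 1.126 and called peaks per library with SPP against 1 input library. The deposited lists give SPP signal (column 7) and the −log10 of the FDR for each peak, cut by rank near 300000 peaks in 3 of the 4 lists. The deposited FPKM are the authors' values per RefSeq gene from TopHat2 2.0.13, Cufflinks and Cuffnorm 2.2.1. Of 23500 rows, 1 had no name, 95.5% matched a symbol, and 180 symbols with several rows were left out.

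The 5000 top peaks of each list by signal, their summits, GRCh37 sequence and GENCODE v44lift37 starts were used, with Python 3.11.15, scipy 1.17.1 and pysam 0.24.0. The library was the unit of each exact permutation test. Functions were tested on simulated data. Wilson intervals cover counting error only, and the read depth behind a peak is unknown. Members, gene lists and motifs were chosen with earlier results of these data known. Genes were named where a listed gene had a site in both libraries of a factor, or was among the 10 lowest rank sums at promoters. Sites were named by the same rank sums. Other genes and sites were named after their values were seen. Alternatives varied the number of peaks, the windows, the shift, the transcript starts, the FDR and the libraries used. The formaldehyde share at fixation differs between the labels and the methods. Some items withheld for evaluation are not reported here.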

Additional observations from a re-analysis of the deposited data

Results flagged for a closer look

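In the 4 SP1 libraries of both cell lines, ZR751shMLL3 SP1 replicate 2 stood far from the other 3 on 10 of 14 measures, by the gap to its nearest neighbour relative to the whole range. Its promoter share was 82.24%, against 6.82% to 8.18% in the others, and it reached 4024 genes at promoters, against 397 to 489. The share of its sites with a GC box was 19.82% and with the core GC box 62.92%, against 1.16% to 1.70% and 4.80% to 6.02%. NF-Y (19.18%), ETS (5.14%), NRF1 (2.70%) and CTCF (0.68%) motifs were also higher than in the other 3, AP-1 (2.38%) was lower, and the median GC content of its sites was 64.7%, against 33.3% to 36.3%. These measures are not independent, since the sites are mostly the same promoters. Among the 4 ERα libraries, ZR751shLucif ERα replicate 2 stood apart with a GC box at 0.28% of sites, against 0.10% to 0.12%. Chance flags about 1 in 20 groups.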

How the results depend on the processing

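With 2 libraries per factor no test could pass 0.05, and the spread between the SP1 libraries (SD 52.4 percentage points for the promoter share) is wide, so the 82 alternative values for 9 results, of which 3 reversed, are no measure of stability. With the ZR751shLucif libraries added, the difference between ERα and SP1 was -23.51 percentage points for the promoter share, 2.46 for the ERE and -5.835 for the GC box, each at an exact permutation p of 0.0286 (added after seeing the data for both motifs). Permuting within cell lines, also added later, gave 0.0556. The excess of ERα sites near SP1 over shifted positions was 0.3075 percentage points. It was 8.49 at promoter sites alone, where shifted positions leave the promoter, and 0.128 at non-promoter sites, which are most ERα sites. That of SP1 sites near ERα was 0.3125, with 0.189 at promoters and 0.792 away from promoters. Single pairs of libraries gave 0.00 to 0.64 and -0.01 to 0.69, the lowest from ERα replicate 2 with SP1 replicate 2. At 5 FPKM or more, 82.6% of genes reached by both SP1 lists counted as expressed.

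Leaving out 1 library gave -80.17 to -6.11 for the promoter share, -3922 to -387 genes, 1.80 to 3.42 for the ERE and -19.71 to -1.59 for the GC box. GC content gave -28.4 to 2.99 percentage points, reversed without SP1 replicate 2, and H3K4me1 gave -0.47 to 8.19, reversed without ERα replicate 1. The replicate numbers did not pair the libraries by any label, and deviations of same-numbered libraries over 1 Mb bins correlated at 0.237. The replicate block left the promoter difference at -43.14 with an exact p of 0.5, the smallest that 2 pairs can give, and was run for the promoter share alone.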
